A study of Mus musculus with 2 samples.

Results

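The Ly6 surface antigen family was followed here through 6 of its genes, Ly6a, Ly6a2, Ly6c1, Ly6c2, Ly6d and Ly6e, in single cells of lineage-depleted mouse bone marrow. They were matched by symbol and are 6 of the 56748 genes counted in each library. The choice rested on measured values, since Ly6c2 and Ly6a2 were low in the Nat10 cKO library, so every difference between the genotypes given for these genes is a description and carries no test. The groups were bone marrow cells of Nat10 cKO mice and of WT mice, both of strain C57BL/6, each depleted of lineage-positive cells with a Miltenyi kit and read as 1 library of 10x 3′ single-cell RNA tags. A cKO is a conditional knockout; the labels name neither the Cre driver nor the deleted exons, nor an age. Nat10 is the enzyme that writes N4-acetylcytidine (ac4C) on RNA, and the series asks what it does for blood stem cells, both their upkeep and their differentiation. There were 5 mice according to the design text, and no label ties a cell to a mouse.

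Ly6 proteins are small, cysteine-rich surface proteins of the three-finger fold that are held in the outer leaflet of the cell membrane by a glycosylphosphatidylinositol (GPI) anchor. Several are everyday sorting markers: Ly6a encodes Sca-1, used with Kit to isolate mouse stem and multipotent progenitor cells, Ly6c2 encodes Ly6C, which marks inflammatory monocytes and their progenitors, and Ly6d marks lymphoid progenitors committed to the B lineage. Ly6a and Ly6e are known to respond to interferons. The depletion step itself touches this family, because lineage cocktails for mouse marrow usually hold an antibody to Gr-1, an epitope of Ly6G and Ly6C, and so can remove cells with the most Ly6C protein; the labels do not list the antibodies, and what this did to the levels below was not tested.

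The 6 genes lie on chromosome 15 in a stretch of 14 protein-coding genes of the RefSeq annotation that begins with Ly6d and ends with Ly6a, Ly6c1, Ly6c2 and Ly6a2 as direct neighbours. Promoter sequence was found in the RefSeq table (GRCm38.p6) for 3 of the 6 and is shown here. The pair with the lowest ratios of cKO over WT, Ly6c2 and Ly6a2, have nearly the same promoter, whereas Ly6c1, beside Ly6c2, does not. That pair is the one the choice rested on, and whether promoter sequence bears on any ratio was not tested. The 250 bases before each start site, read 5′ to 3′ on the minus strand, cover chr15:75135129-75135378 for Ly6a2, chr15:75111972-75112221 for Ly6c2 and chr15:75048838-75049087 for Ly6c1. Capitals mark the 4 aligned bases at which Ly6a2 and Ly6c2 differ from each other and, in Ly6c1, the 52 aligned bases at which it differs from Ly6c2. Bases with no partner in an alignment are not marked.
Ly6a2: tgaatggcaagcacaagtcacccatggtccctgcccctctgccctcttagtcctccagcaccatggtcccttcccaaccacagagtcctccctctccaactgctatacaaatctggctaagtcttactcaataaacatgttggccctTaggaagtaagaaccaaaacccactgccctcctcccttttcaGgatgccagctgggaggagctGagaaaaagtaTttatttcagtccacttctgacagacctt
Ly6c2: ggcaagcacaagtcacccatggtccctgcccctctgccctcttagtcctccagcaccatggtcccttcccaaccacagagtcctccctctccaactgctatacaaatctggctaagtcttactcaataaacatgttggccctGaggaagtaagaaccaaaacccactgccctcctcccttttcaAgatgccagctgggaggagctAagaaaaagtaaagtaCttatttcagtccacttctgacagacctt
Ly6c1: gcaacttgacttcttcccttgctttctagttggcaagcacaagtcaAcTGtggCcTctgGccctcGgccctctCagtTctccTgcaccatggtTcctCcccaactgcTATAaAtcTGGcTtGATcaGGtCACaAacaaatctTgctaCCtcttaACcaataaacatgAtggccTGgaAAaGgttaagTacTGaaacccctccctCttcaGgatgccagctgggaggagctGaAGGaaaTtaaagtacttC

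Ly6a2 and Ly6c2 were identical at 241 of 245 aligned promoter bases (98.4%), and Ly6c1 and Ly6c2 at 164 of 216 (75.9%). With positions counted back from the Ly6c2 start site and the Ly6c2 base first, the aligned bases that differed were G108T, A66G, A45G and C29T. Between A45G and C29T Ly6c2 also holds bases that Ly6a2 lacks. C29T lies 29 bases before both starts, but A45G only 40 before that of Ly6a2. The G108T change falls in the first of the letters GAGGAAGT, a match to a PU.1-type site that began 108 bases before the Ly6c2 start. Ly6a2 reads TAGGAAGT there, which differs in that letter alone and so was not counted as a match. The letters GAGGAAGT stand on either strand in 2.42% of 27025 promoters. A C/EBP-type match (TTNNGNAA, in 37.0% of promoters) stood on the opposite strand 132 bases before the Ly6c2 start and 127 bases before that of Ly6a2. A TATA-type match (TATAAA, in 12.98%) was found in Ly6c1 alone among the 3, 143 bases before its start. The interferon-stimulated response element, searched as GAAA, any 2 bases and GAAA (in 3.05% of promoters), and the interferon-gamma activated site, TTCNNNGAA (in 7.14%), were in none of the 3 windows. Both strands were searched, no match overlapped another, and a match is only a match of letters.

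Shared stretches in their 3′ ends, from which 3′ tags are read, limit how far some of these genes can be told apart. Among the last 500 bases of the GENCODE vM21 transcripts, 34.6% of the 50-base words of Ly6c2 and 29.2% of those of Ly6c1 also occurred in another gene, in each case chiefly in the other of the pair. For Ly6a2 the share was 10.1%, of which 3.67% lay with Gm5960, 3.06% with Ly6a and 0.459% with Ly6c2, and for Ly6a it was 8.13%, while Ly6d and Ly6e shared none. The sources used here do not give how reads that fit several genes were counted, so the values of Ly6c1 in particular, where Ly6c2 is far above it, are uncertain.

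Unique molecular identifiers (UMIs) count captured transcripts, and there were 271499717 of them on 13479 cKO barcodes and 288303275 on 15848 WT barcodes. Filtering kept 10695 cKO cells (median 21450 UMIs each) and 11945 WT cells (median 18315 UMIs each); 40 of the kept barcodes occur in both libraries. Clusters made without the 6 genes were named from marker genes into 17 classes, of which 10 held at least 100 cells in both libraries. Unnamed clusters held 30.4% of cKO and 29.9% of WT cells, with median depths as far apart as 31097.5 and 2437 UMIs. Nat10 stood at 38.7 CPM (UMIs scaled to a fixed total for each library or class) in cKO cells and 47.0 CPM in WT cells, which does not check the knockout because the deleted part is not named. With 1 library for each genotype nothing below has a replicate check, and the 95% intervals, exact Poisson for levels, exact conditional binomial for ratios and exact binomial for shares, cover counting error only.

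Across all kept cells the family split into 2 genes far lower in the cKO library, 1 somewhat lower and 3 near or below 10 CPM. Ly6c2, the gene for Ly6C, had 178 CPM in cKO cells (45302 UMIs) against 506 CPM in WT cells (133042 UMIs), a log2 ratio of cKO over WT of −1.504 (−1.52 to −1.49). Ly6a2, a neighbour whose protein is little studied, had 7.68 CPM in cKO cells (1949 UMIs) and 36.1 CPM in WT cells (9490 UMIs), a log2 ratio of −2.23 (−2.30 to −2.16). These are the values the genes were chosen on: among 6848 genes with at least 20 CPM on average and 100 UMIs, Ly6a2 was the 2nd and Ly6c2 the 10th from the lowest ratio, and 1.04% of genes were at least 2-fold lower in cKO cells and 0.102% at least 2-fold higher. Of the 3 members that passed this floor, 2 were past 2-fold lower, the third being Ly6e.

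Ly6e, the most abundant member, which encodes an antigen of immature thymocytes that also limits the entry of some viruses, had 437 CPM in cKO cells and 565 CPM in WT cells, a log2 ratio of −0.37 (−0.38 to −0.36). Ly6a had 8.60 CPM in cKO cells and 6.53 CPM in WT cells, at 0.40 (0.30 to 0.49). Ly6d had 8.49 CPM in cKO cells and 9.06 CPM in WT cells, at −0.09 (−0.18 to −0.01), and at 1.24 when every cell weighed alike. Ly6c1, the Ly6C gene known from endothelial cells, was nearly absent, with 52 UMIs in cKO cells and 76 in WT cells, and its ratio of −0.49 (−1.04 to 0.03) held 0. These sums mix classes of very different level and share. With the cKO classes weighted to the WT class shares, Ly6a turned to −0.14, while Ly6c2 stood at −1.19 and Ly6a2 at −1.77.

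**Figure D1:**
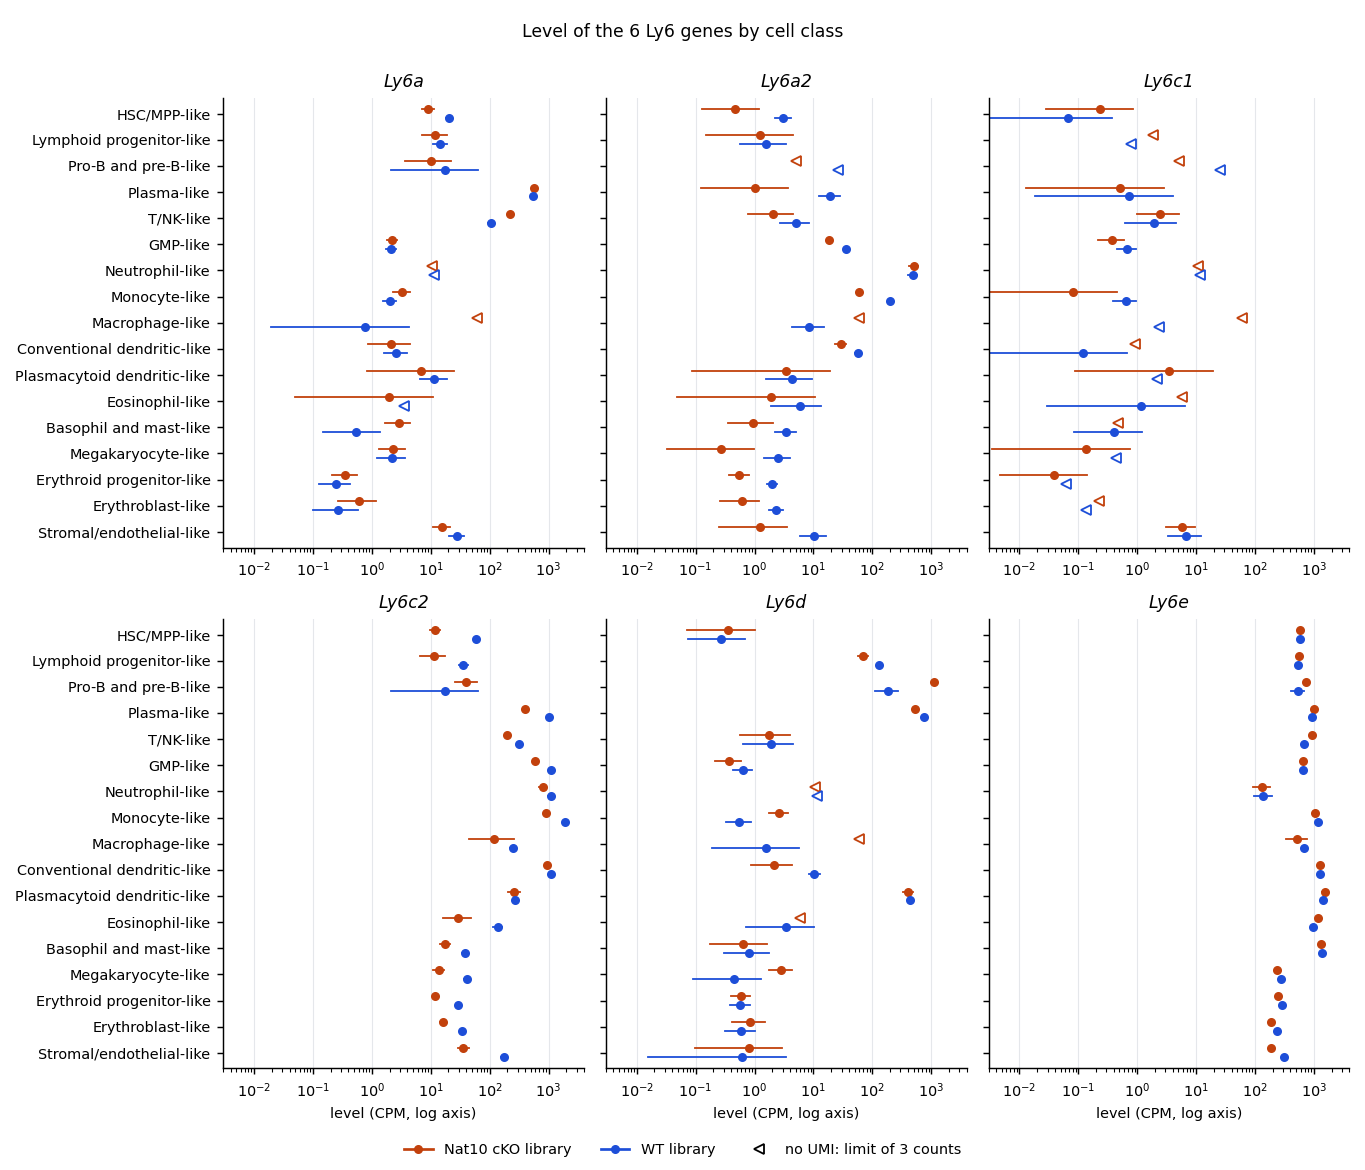
Level of each Ly6 member (CPM, log axis) in the cell classes of the cKO (orange) and WT (blue) library, 1 library each, with exact Poisson 95% intervals; an open triangle is the level that 3 UMIs would give where none was seen. Ly6e lay above 100 CPM in every class in both libraries, Ly6c2 was high in myeloid classes, and Ly6a, Ly6d and Ly6c1 stood high in few classes.

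Each member had its own map over the cell types. Ly6c2 was led in the WT library by monocyte-like cells, at 1879 CPM, then by conventional dendritic-like cells at 1121 CPM and granulocyte-monocyte progenitor-like (GMP-like) cells at 1090.3 CPM, whose intervals overlapped by little. In the cKO library conventional dendritic-like cells at 951 CPM and monocyte-like cells at 919 CPM overlapped at the top, above GMP-like cells at 578 CPM. Among the 10 classes compared T/NK-like cells came next in both libraries, at 196 CPM in cKO cells and 321 CPM in WT cells. Every other class compared was under 40 CPM in the cKO library and under 180 CPM in the WT library. Monocyte-like and GMP-like cells together held most Ly6c2 UMIs, 25.2% and 58.6% of those of cKO cells and 46.9% and 38.2% of those of WT cells.

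Ly6c2 was lower in the cKO library in all 10 classes, with an interval below 0 in each. In monocyte-like cells the log2 ratio was −1.03 (−1.06 to −1.003), and in GMP-like cells −0.91 (−0.94 to −0.89). Conventional dendritic-like cells had a ratio of −0.24 (−0.30 to −0.18) at these cluster settings, and values from −2.73 to −2.97 under 4 others that put different cells in that class. T/NK-like cells stood at −0.71 (−0.87 to −0.56) as a class, but its clusters held different parts of it in each library. The cluster led by Sidt1, Klra7 and Ccl5, with most Ly6c2, had 527.0 CPM in 126 cKO cells and 527.1 CPM in 215 WT cells, a ratio of 0.00 (−0.19 to 0.19). The cluster led by Ncr1 and Xcl1, genes of natural killer cells, had 179.9 CPM in 214 cKO cells and 160.3 CPM in 108 WT cells, at 0.16 with an interval that held 0. The cluster led by Il2ra and Gata3 had 20.3 CPM in 239 cKO cells and 53.1 CPM in 90 WT cells, at −1.38. Basophil and mast-like cells stood at −1.11 (−1.45 to −0.79), and between −2.23 and −0.67 under the alternatives. Neutrophil-like cells, with 31 cKO and 34 WT cells, had 796 CPM in cKO cells and 1087 CPM in WT cells, and plasmacytoid dendritic-like cells, with 20 and 77 cells, had 262 CPM in cKO cells and 273 CPM in WT cells, with an interval that held 0.

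Set against all genes with at least 20 CPM and 100 UMIs in a class, the members past 2-fold were few. Members under this floor are left out of these counts, some of them past 2-fold in either direction. In monocyte-like cells Ly6c2 and Ly6a2, 2 of the 3 members past the floor, were at least 2-fold lower in cKO cells. So were 0.48% of genes, while 0.09% were at least 2-fold higher. In 6 classes only 2 members, Ly6c2 and Ly6e, passed the floor, and Ly6c2 alone of them was past 2-fold lower. There the share of all genes past 2-fold lower was 0.982% in HSC/MPP-like, 0.112% in erythroid progenitor-like, 0.0504% in erythroblast-like, 0.222% in basophil and mast-like, 1.74% in megakaryocyte-like and 1.41% in stromal/endothelial-like cells. The shares past 2-fold higher in these 6 classes, in the same order, were 0.0866%, 0.032%, 0.353%, 0.118%, 1.48% and 1.29%, with neither of these members among them. None of the 3 members past the floor was past 2-fold in GMP-like cells (0.777% of genes lower and 0.0466% higher) or conventional dendritic-like cells (0.526% lower and 0.19% higher). In T/NK-like cells 1 of the 3 members past the floor, Ly6a, was past 2-fold higher, where 1.03% of genes were higher and 0.833% lower.

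**Figure D2:**
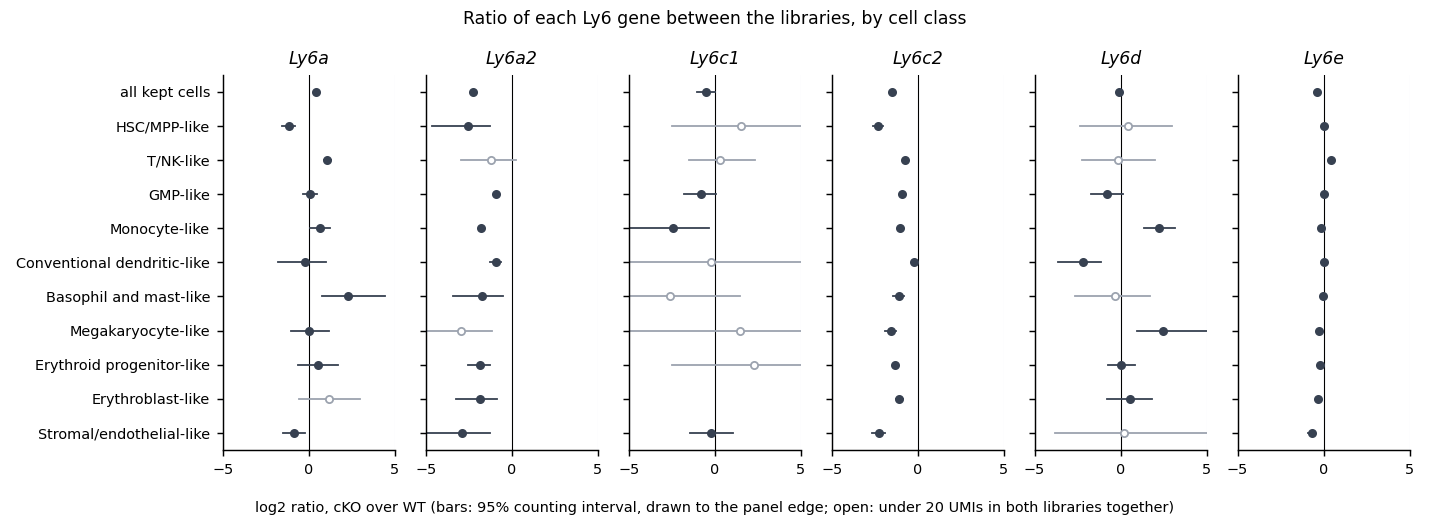
Log2 ratio of cKO over WT for each Ly6 member in all kept cells and in the 10 classes compared, with exact 95% intervals for counting error; open symbols rest on under 20 UMIs over both libraries. The Ly6c2 ratios lie between −2.29 and −0.24, and those of Ly6e between −0.70 and 0.43.

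Within the myeloid classes the clusters differed in both level and ratio. The monocyte-like cluster led by Lyz2 and Nrg1 had the highest Ly6c2 level, 1612 CPM in 191 cKO cells and 2290.3 CPM in 756 WT cells, a log2 ratio of −0.51 (−0.54 to −0.47). The cluster led by Rgs5 and F13a1 had 532 CPM in cKO cells and 770.1 CPM in WT cells, at −0.53. Both ratios lie nearer 0 than that of the class as a whole, of which the Lyz2 cluster held 191 of 435 cells in the cKO library and 756 of 1003 in the WT library. Among GMP-like clusters the one led by Elane had 1059.5 CPM in cKO cells and 1639.8 CPM in WT cells (−0.63), and the one led by Fcnb 665 CPM in cKO cells and 1269 CPM in WT cells (−0.93). The one led by Slpi and Lmo1 had 729 CPM in cKO cells and 1136 CPM in WT cells (−0.64). These clusters held different parts of the class in each library: the Slpi cluster 609 of 1398 GMP-like cKO cells and 125 of 1339 WT cells, the Elane cluster 61 and 276, and the Fcnb cluster 379 and 587. The GMP-like cluster led by Fkbp11 and Cebpe, with the lowest level of these, had 149 CPM in cKO cells and 379 CPM in WT cells, at −1.34 (−1.42 to −1.26). With every cKO cluster weighted to its WT share, the ratio over all kept cells was −0.68 for Ly6c2 and −1.11 for Ly6a2.

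**Figure D3:**
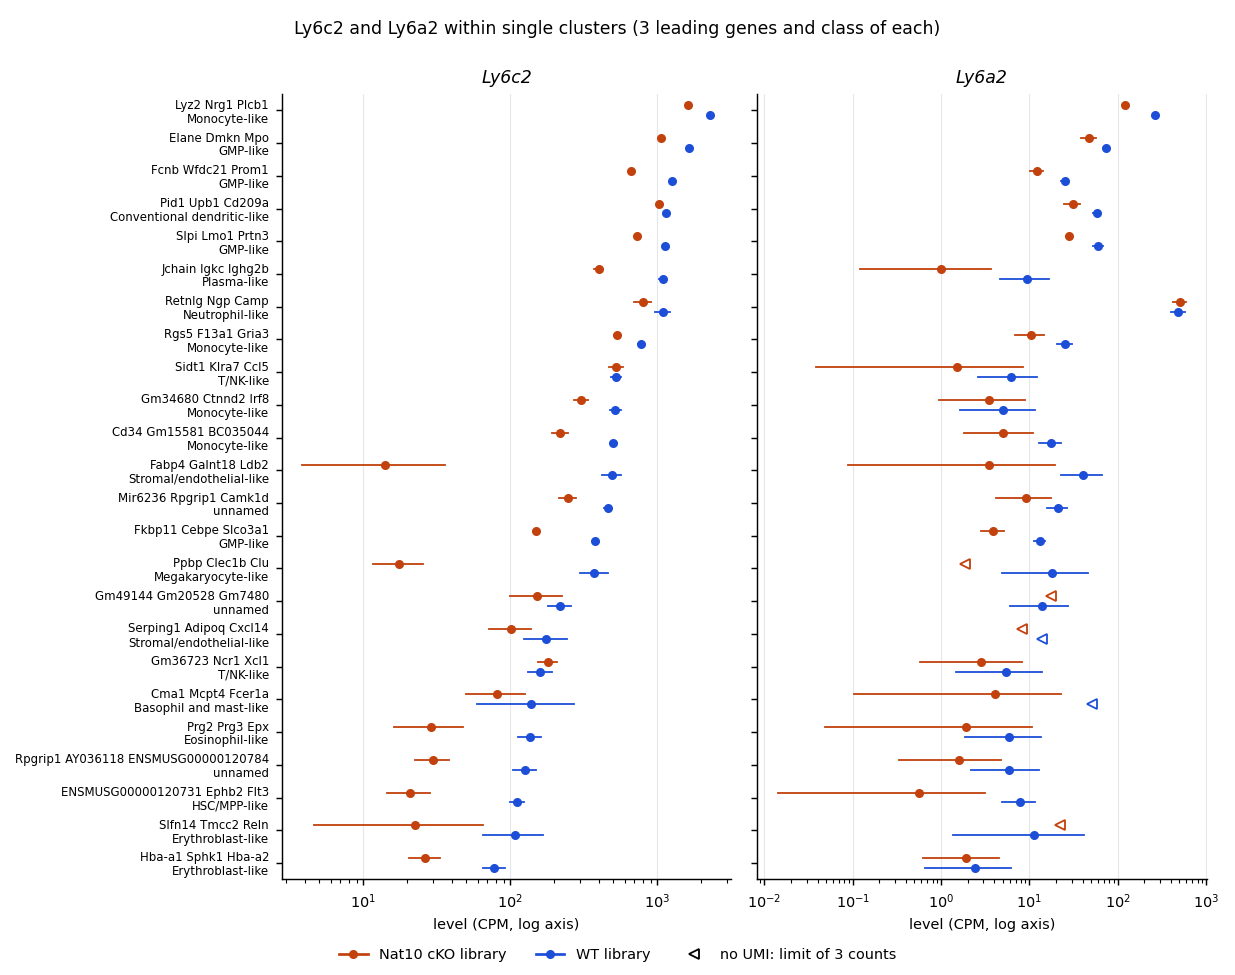
Levels of Ly6c2 and Ly6a2 (CPM, log axis) in the 24 clusters of highest WT Ly6c2 among those of at least 30 cells per library, ordered by that level; cKO orange, WT blue, 1 library each, bars exact Poisson 95% intervals. In the Lyz2 cluster Ly6c2 stands at 1612 CPM in cKO and 2290.3 CPM in WT cells, and in the Fabp4 and Ppbp clusters the WT value rests largely on 1 cell.

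Among the 10 classes Ly6a2 passed 11 CPM in either library only in the same 3 myeloid classes. Monocyte-like cells had 58.4 CPM in the cKO library and 202 CPM in the WT library, a log2 ratio of −1.79 (−1.90 to −1.68). Conventional dendritic-like cells had 29.2 CPM in cKO cells and 56.4 CPM in WT cells, at −0.95, and GMP-like cells 18.7 CPM in cKO cells and 35.8 CPM in WT cells, at −0.94. The order of these 3 was the same in both libraries and their intervals did not overlap. The highest level of all was in the small neutrophil-like class, where Ly6a2 stood at 506 CPM in cKO cells (143 UMIs) and 486 CPM in WT cells (127 UMIs), at 0.06 (−0.30 to 0.41). Over the 10 classes the interval lay below 0 in 9 and held 0 in T/NK-like cells. In the Lyz2 cluster Ly6a2 had 121 CPM in cKO cells and 262 CPM in WT cells, at −1.11 (−1.23 to −0.996), so the Ly6a2 ratio there was further from 0 than the Ly6c2 ratio in the same cells.

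HSC/MPP-like cells, those with markers of stem cells and multipotent progenitors, had little Ly6c2, and the cKO library less of it. Their level was 11.8 CPM in cKO cells (101 UMIs) against 58.0 CPM in WT cells (868 UMIs), a log2 ratio of −2.29 (−2.61 to −1.997). This was the lowest ratio of 6927 genes in that class, on the contrast the gene was chosen from. It lay between −1.5001 and −1.78 when cells under 3000 UMIs were left out, doublets were kept, or the clustering was changed. In the cluster led by Mecom and Hlf, genes of long-term stem cells, Ly6c2 had 9.46 CPM in 244 cKO cells and 44.7 CPM in 522 WT cells. Ly6a2 had 4 UMIs in HSC/MPP-like cKO cells and 46 in WT cells.

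Low Ly6c2 levels of this kind also appeared in cells that should lack the gene. Erythroblast-like cells had 16.2 CPM in the cKO library and 33.8 CPM in the WT library, and erythroid progenitor-like cells 11.6 CPM in cKO cells and 29.0 CPM in WT cells. The HSC/MPP-like level thus lay below the erythroblast-like one in the cKO library, with overlapping intervals, and above it in the WT library. RNA free in the suspension can give such low levels. Over all kept cells the 12 monocyte markers, all with UMIs, summed to 536 CPM in cKO cells and 1126 CPM in WT cells. In erythroblast-like cells the same markers, all 12 again with UMIs, summed to 37.0 CPM in cKO cells and 59.6 CPM in WT cells. There were 43.7 Ly6c2 UMIs for every 100 marker UMIs in cKO and 56.8 in WT erythroblast-like cells, and 33.3 in cKO and 44.98 in WT cells over all kept cells. In HSC/MPP-like cells the markers summed to 536 CPM in cKO and 701 CPM in WT cells, with 2.20 Ly6c2 UMIs for every 100 in cKO cells and 8.27 in WT cells. The marker Irf8 alone had 147 CPM in cKO and 163 CPM in WT HSC/MPP-like cells. In erythroblast-like cells it had 4.10 CPM in cKO and 9.79 CPM in WT cells, so the quotients of these 2 classes are not alike in make-up. The part of free RNA in the ratios of low classes was not tested.

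The monocyte markers also differed within the myeloid classes. In monocyte-like cells they summed to 4115 CPM in the cKO library and 5006 CPM in the WT library, 8 of 12 being lower in cKO cells, and Ly6c2 UMIs per 100 marker UMIs were 22.3 in cKO cells and 37.5 in WT cells. In GMP-like cells the sum was higher in the cKO library, 997 CPM against 729 CPM, while Ly6c2 was lower, so the quotient was 58.0 in cKO cells and 149.6 in WT cells. Neutrophil markers, all 10 with UMIs, summed in the same GMP-like cells to 355 CPM in cKO cells and 1364 CPM in WT cells, 6 of the 10 being lower in cKO cells and 4 higher, and the Slpi cluster held 609 of 1398 of these cells in the cKO library and 125 of 1339 in the WT library. In conventional dendritic-like cells the monocyte markers summed to 5189 CPM in cKO cells and 6094 CPM in WT cells, above the sums in monocyte-like cells. These markers thus do not set that class apart from monocyte-like cells. The quotient there was 18.3 in cKO cells and 18.4 in WT cells. What the different clusters and marker levels contribute was not tested.

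Other low classes rested in part on single cells. Stromal/endothelial-like cells had 35.9 CPM of Ly6c2 in cKO cells and 173 CPM in WT cells, but 1 WT cell held 162 of 286 UMIs and 1 cKO cell 29 of 88. Without these the values were 24.4 CPM in cKO cells and 79.1 CPM in WT cells, a log2 ratio of −1.69 in place of −2.26. Of 17 Ly6a2 UMIs in WT stromal/endothelial-like cells, 15 came from 1 cell. In megakaryocyte-like cells Ly6c2 stood at 13.6 CPM in cKO cells and 40.8 CPM in WT cells, and at 11.6 CPM in cKO cells and 32.03 CPM in WT cells without the highest cell of each.

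Shares of cells with a UMI showed how these levels were spread. Each cell was thinned to 2000 UMIs, which left out 1154 cKO and 2293 WT cells with fewer. Ly6c2 was then seen in 16.8% of cKO cells (16.0 to 17.5%) and 32.1% of WT cells (31.1 to 33.0%). In monocyte-like cells it was seen in 63.2% of cKO cells and 87.7% of WT cells, with a median of 1 UMI in cKO cells and 4 in WT cells. In GMP-like cells the shares were 55.2% in cKO cells and 74.9% in WT cells. The erythroblast-like shares, taken as background, were 3.27% in cKO cells and 7.66% in WT cells; before thinning they were 14.04% in cKO cells and 35.8% in WT cells, at median depths of 5641 UMIs in cKO and 11193 UMIs in WT cells.

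Against that background the HSC/MPP-like share of Ly6c2 in cKO cells was 1.94% (6 of 309; 24.6% before thinning, at a median of 25973 UMIs). After thinning it was no higher than the erythroblast-like share, with overlapping intervals. Before thinning it was higher, from 101 UMIs in 309 HSC/MPP-like and 213 UMIs in 1346 erythroblast-like cKO cells, at unlike depths. No expression is read from the thinned share, and whether these cells express Ly6c2 was not tested. In WT cells 9.84% (60 of 610; 54.6% before thinning, at 23016 UMIs) was above the erythroblast-like share, with overlapping intervals. Ly6a2 was seen in 8.51% of cKO and 29.6% of WT monocyte-like cells, against 0.281% of cKO and 0.589% of WT erythroblast-like cells. Ly6e was seen in 52.4% of all cKO cells and 58.4% of all WT cells, and in 27.8% of cKO and 33.0% of WT erythroblast-like cells.

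**Figure D4:**
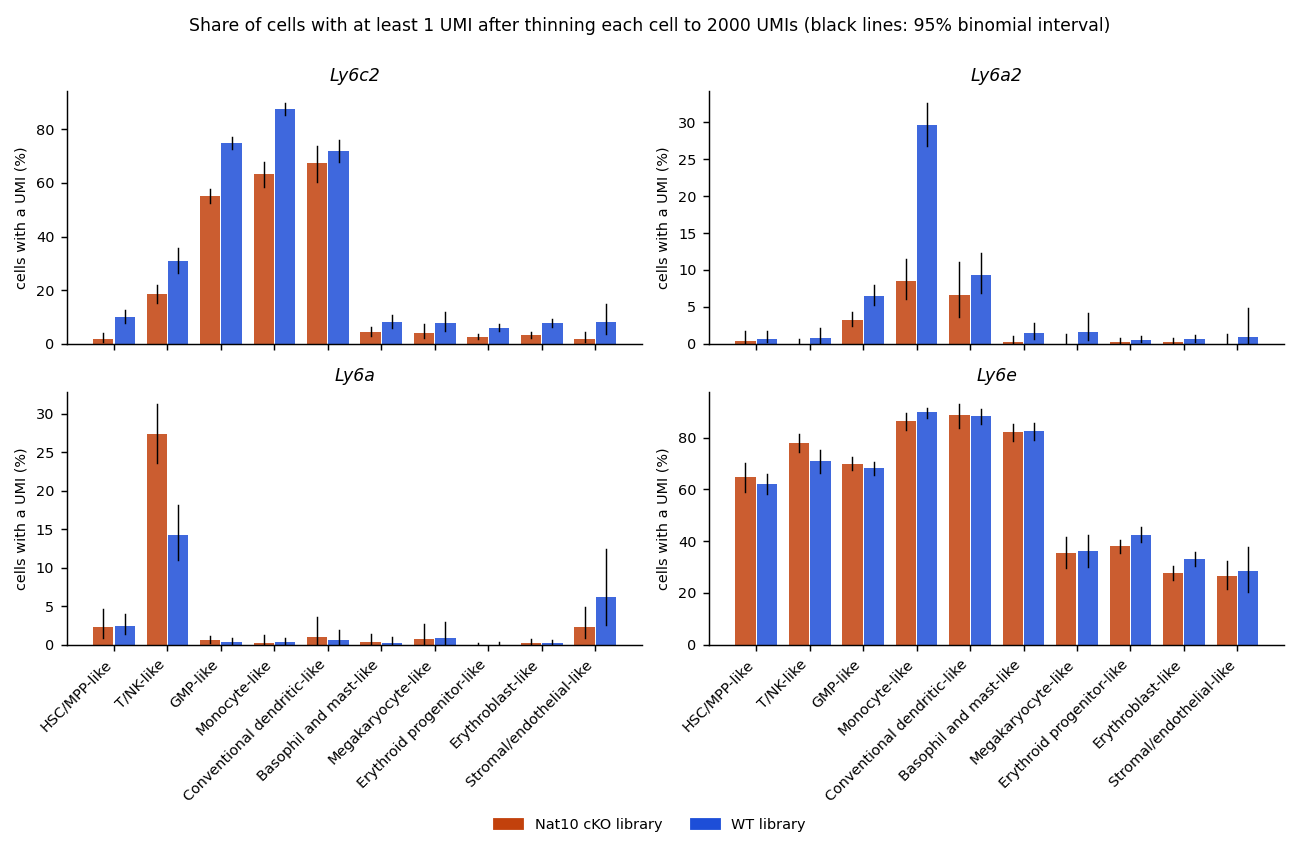
Share of cells (%) with at least 1 UMI of Ly6c2, Ly6a2, Ly6a or Ly6e after each cell was thinned to 2000 UMIs, by class, cKO orange beside WT blue, with exact binomial 95% intervals. Ly6c2 was seen in 63.2% of cKO and 87.7% of WT monocyte-like cells, and Ly6a in 27.3% of cKO and 14.3% of WT T/NK-like cells.

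Ly6a, the Sca-1 gene, stood out in plasma-like and lymphoid cells rather than in stem-like cells. Plasma-like cells had 561 CPM in cKO cells (129 cells) and 549.9 CPM in WT cells (76 cells, with 201 of 746 UMIs in 1 of them), and these cells held 51.0% of all Ly6a UMIs in the cKO library and 43.4% in the WT library. T/NK-like cells had 225 CPM in cKO cells and 107 CPM in WT cells, a log2 ratio of 1.08 (0.87 to 1.29) with 644 UMIs in cKO cells and 277 in WT cells. Most of this level came from the cluster led by Il2ra and Gata3, genes of innate lymphoid and activated T cells, which had 450.2 CPM in 239 cKO cells and 398 CPM in 90 WT cells, a ratio of 0.17 whose interval held 0. The cluster led by Sidt1, Klra7 and Ccl5 had 52.1 CPM in cKO cells (34 UMIs) and 6.14 CPM in WT cells (8 UMIs). The share of that class with a Ly6a UMI after thinning was 27.3% in cKO and 14.3% in WT cells, against 0.187% of cKO and 0.168% of WT erythroblast-like cells; before thinning it was 41.5% in cKO and 24.2% in WT cells, at medians of 4693 and 6226 UMIs.

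In HSC/MPP-like cells, where Sca-1 protein serves as a sorting marker, Ly6a had 9.12 CPM in the cKO library (78 UMIs) and 20.6 CPM in the WT library (309 UMIs), a log2 ratio of −1.17 (−1.56 to −0.82). Both levels were far above the erythroblast-like ones of 0.608 CPM in cKO cells and 0.270 CPM in WT cells. The ratio stayed between −1.39 and −1.04 under the 10 alternatives tried for it. After thinning only 7 cKO and 15 WT cells of that class showed a UMI, 2.27% and 2.46%, so the difference was not detectable at that depth; before thinning 14.6% of cKO and 27.2% of WT cells did. The Mecom and Hlf cluster had 11.2 CPM in cKO cells and 24.5 CPM in WT cells. The 12 markers of the HSC/MPP-like class were also lower there as a sum, with 3703 CPM in cKO and 5296 CPM in WT HSC/MPP-like cells. That is a log2 ratio of −0.52 (−0.53 to −0.50), with 11 markers lower in cKO cells and 1 higher. What this contributes to the Ly6a ratio was not tested.

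Ly6d was highest in B-lineage and plasmacytoid dendritic-like classes. Pro-B and pre-B-like cells had 1124 CPM in 140 cKO cells and 181 CPM in 13 WT cells, too few WT cells for a comparison. Plasma-like cells had 539 CPM in cKO cells and 741 CPM in WT cells, and plasmacytoid dendritic-like cells 404 CPM in cKO cells and 443 CPM in WT cells with overlapping intervals. Lymphoid progenitor-like cells, in which Ly6d marks commitment to B cells, had 69.3 CPM in 73 cKO cells and 131 CPM in 166 WT cells. As 1 cKO cell held 61 of 111 UMIs, the values without the highest cell of each library were 31.5 CPM in cKO cells and 118 CPM in WT cells. In the 10 classes compared Ly6d never passed 11 CPM, and conventional dendritic-like cells, at 2.13 CPM in cKO cells (7 UMIs) and 10.3 CPM in WT cells (87 UMIs), alone had an interval below 0, at −2.19 (−3.63 to −1.17).

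Ly6e was found in every class, with ratios near 0 in most of them. Basophil and mast-like cells led the 10 classes, at 1332 CPM in cKO cells and 1382 CPM in WT cells, followed by conventional dendritic-like cells at 1280.5 CPM in cKO and 1288 CPM in WT cells and by monocyte-like cells at 1056 CPM in cKO and 1159 CPM in WT cells. HSC/MPP-like cells had 589 CPM in cKO and 588 CPM in WT cells, and GMP-like cells 652 CPM in both, each with a log2 ratio of 0.00. The erythroid and megakaryocyte classes stood lowest with stromal/endothelial-like cells, between 189.8 CPM and 242 CPM in cKO cells and between 234 CPM and 309 CPM in WT cells. T/NK-like cells were the exception in direction, with 914 CPM in cKO cells and 677 CPM in WT cells, at 0.43 (0.35 to 0.52). Of the other 9 classes, 6 had an interval below 0, though basophil and mast-like cells turned to 0.00759 with TMM and 0.00126 with median-of-ratios scaling, the furthest being stromal/endothelial-like cells at −0.70 (−0.89 to −0.52), which became −0.47 without the highest cell. The order of the first 6 classes was the same in both libraries.

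Ly6c1 rested on few UMIs in any class. Stromal/endothelial-like cells had 5.71 CPM in cKO cells (14 UMIs) and 6.65 CPM in WT cells (11 UMIs), the highest of the 10 classes, and within them the endothelial cluster led by Fabp4 had 45.8 CPM in cKO cells (13 UMIs) and 21.7 CPM in WT cells (8 UMIs), with overlapping intervals. Monocyte-like cells had 1 UMI in the cKO library and 21 in the WT library. Since monocyte-like cells are rich in Ly6c2, whose 3′ end shares words with that of Ly6c1, these last counts are uncertain. No Ly6c1 UMI was seen in erythroblast-like cells of either library, which allows up to 0.228 CPM in cKO cells and 0.135 CPM in WT cells.

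Genes whose levels ran most alike over the 31 pairs of class and library with at least 30 cells were sought for each member by Pearson correlation of log2(CPM + 1) among 11575 genes. These points share 2 libraries and the correlations are descriptions. As points of both libraries stand together, the contrast on which Ly6c2 and Ly6a2 were chosen enters their correlation. Ly6c2 ran closest to Tom1 (0.85), an endosomal adaptor, to its neighbour Ly6a2 (0.84) and to Cybb (0.83), the phagocyte NADPH oxidase subunit. Ly6a2 ran closest to Mcemp1 (0.95), Clec5a (0.93) and Clec7a (0.90), membrane proteins of myeloid cells, the last being the beta-glucan receptor Dectin-1. For Ly6d the closest were the gene model ENSMUSG00000120754 (0.95), the B cell kinase Blk (0.94) and Tnfrsf13c (0.89), the BAFF receptor. Ly6a ran closest to Hid1 (0.88), Lax1 (0.88) and the noncoding RNA Lncpint (0.87), Ly6c1 to the endothelial and stromal genes Epas1 (0.93), Flrt2 (0.92) and Kcnj8 (0.92), and Ly6e to Gpr183 (0.87), the gene model ENSMUSG00000120245 (0.85) and Sting1 (0.84). Among other pairs of members the highest value was 0.57, between Ly6a and Ly6d.

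Joint detection of 2 members was counted within the single cells of each library. After thinning, 74.3% of cKO cells with a Ly6a2 UMI also had a Ly6c2 UMI (101 of 136), against 16.8% of all cKO cells, and 87.2% did in the WT library (443 of 508), against 32.1% of all WT cells. Within monocyte-like cells alone these shares were 86.5% in cKO cells (32 of 37, against 63.2% of the class) and 99.0% in WT cells (293 of 296, against 87.7%). Ly6a and Ly6c2 stood apart in T/NK-like cells: 10.53% of cKO cells with a Ly6a UMI had a Ly6c2 UMI (16 of 152), against 18.5% of the class, and 12.3% did in WT cells (7 of 57), against 30.8%. Cells with UMIs of at least 2 members made up 15.2% of cKO and 25.9% of WT cells.

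The wider family stood on both sides of 0. Of 42 other Ly6/uPAR genes listed, 41 were in the files and 19 had at least 50 UMIs. Over all kept cells 11 were lower in cKO cells and 8 higher (7 lower with TMM scaling), and the interval lay below 0 in 5 and above 0 in 6. The median was −0.01, beside −0.11 over the 21256 genes with as many UMIs, of which 61.3% were lower. With TMM scaling the family median was 0.0821. That scaling shifts all genes by the same offset, and the values given for all genes are without it. Plaur, the urokinase receptor, was lowest, at 9.42 CPM in cKO cells and 19.1 CPM in WT cells (−1.02), but stood at 42.3 CPM in cKO and 49.6 CPM in WT monocyte-like cells (−0.23, −0.37 to −0.09). Ly6i, between Ly6e and Ly6a on the chromosome, had 39 UMIs in cKO cells and 81 in WT cells (−0.995). Ly6g, the neutrophil antigen that Gr-1 antibodies bind, had only 114 UMIs in cKO cells and 141 in WT cells (−0.26, −0.63 to 0.11).

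Higher in the cKO library stood the platelet gene Ly6g6f, with 2.58 CPM in cKO cells and 0.453 CPM in WT cells (2.51), Ly6g6c, with 50 UMIs in cKO cells and 6 in WT cells (3.01), Gpihbp1, which carries lipoprotein lipase across capillary endothelium (80 UMIs in cKO and 25 in WT cells, 1.71), and Ly6g6d (1.18). In megakaryocyte-like cells, where 1.48% of genes were at least 2-fold higher in cKO cells, Ly6g6f stood at 82.0 CPM in cKO cells and 13.8 CPM in WT cells and the complement inhibitor Cd59a at 50.3 CPM in cKO cells and 7.93 CPM in WT cells. Over all kept cells Cd59a (−0.01) and Cd59b (−0.02) were level, as were Lypd6b (0.01), Pate2 (−0.01) and Ly6g5b (−0.03), with intervals that held 0. Ly6k (0.11) and Lynx1 (−0.24) also had intervals that held 0, those of Cd177 (−0.24), Bambi (−0.41) and Lypd6 (−0.61) lay below 0, and those of Gml (0.83) and Gml2 (0.77) above it.

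The interferon response genes, a programme to which Ly6a and Ly6e respond, were mostly lower in the cKO library over all kept cells. Of 37 measured, 34 were lower over all kept cells, each with an interval below 0, and the median log2 ratio was −0.50, beside −0.11 over all genes, of which 61.3% were lower. Ifi27l2a stood lowest, with 4.65 CPM in cKO cells and 15.5 CPM in WT cells (−1.74), followed by Ifi44 (−1.64), while the immunoproteasome subunit Psmb8 (0.13) and the signalling inhibitor Socs1 (0.10) stood highest. In HSC/MPP-like cells 31 of 35 were lower, with a median of −0.82 beside −0.14 over all genes, of which 63.2% were lower, from Rsad2 (−1.72) and Ifi44 (−1.65) to Psmb9 (0.35) and Psmb8 (0.60). The list summed to 754 CPM in cKO and 927 CPM in WT cells over all kept cells, but to 1433 CPM in cKO and 1469 CPM in WT HSC/MPP-like cells. There Ly6a was lower too, at −1.17, and Ly6e level, at 0.00. In T/NK-like cells, where Ly6a and Ly6e were both higher in the cKO library, 25 of 31 interferon response genes were higher and 6 lower, 9 and 3 of them with intervals off 0, with a median of 0.23 beside 0.06 over all genes, of which 44.0% were lower. That class mixed its clusters in different parts. The Il2ra and Gata3 cluster, whose own Ly6a interval held 0, made up 239 of 579 cKO and 90 of 413 WT cells. Other classes had the list and Ly6a in opposite directions, and whether interferons bear on the ratio of any member was not tested. In stromal/endothelial-like cells 14 of 19 interferon response genes were higher in cKO cells (median 0.31), where 49.9% of all genes were lower (median 0.00). There Ly6a (−0.84, but up to 0.13 under other cluster settings) and Ly6e (−0.70) were lower. In basophil and mast-like cells 19 of 27 were lower (median −0.44), beside 56.4% of all genes (median −0.06). Ly6a was higher there (2.26), from 18 UMIs in cKO and 4 in WT cells. In monocyte-like cells 23 of 31 were lower (median −0.22), beside 56.9% of all genes (median −0.04), though the list summed to 1412 CPM in cKO and 1355 CPM in WT cells. Ly6a was higher there too (0.68), from 40 UMIs in cKO and 67 in WT cells. All 10 receptors and signal transducers of the pathway were lower over all kept cells, among them Irf9 at −0.42, Jak1 at −0.20 and Ifngr2 at −0.15.

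The genes that build the GPI anchor had ratios near those of all genes. Of 32 genes measured, 18 were lower in cKO cells and 14 higher, with a median of −0.03, beside 61.3% of all genes lower and a median of −0.11. With TMM scaling, which shifts all genes alike and is not in the values for all genes, the list median was 0.0705. The lowest were Pgap1, which removes the acyl chain from the anchor's inositol, at 0.595 CPM in cKO cells and 1.96 CPM in WT cells (−1.71), and Pigz (−0.51), and the highest Pgap4 (0.48) and Pigf (0.41). In HSC/MPP-like cells 19 of 28 were lower, with a median of −0.10, beside 63.2% of all genes lower and a median of −0.14. The anchor genes lay between Pigw (−0.41) and Pigf (0.48) there, and Pigm (−0.29) and Dpm3 (0.30) stood next to these. With TMM scaling 10 of the 28 were lower, with a median of 0.026, while the values given for all genes are without that scaling. Other GPI-anchored surface proteins were lower in 17 of 19 over all kept cells, beside 61.3% of all genes, with a median of −0.41, from Gfra2 (−1.82) and the lipopolysaccharide co-receptor Cd14 (−1.39) to Cd55 (0.05) and Sema7a (0.43). In HSC/MPP-like cells 7 of 13 were lower, beside 63.2% of all genes, with a median of −0.34: Mdga1 (−0.70) and the stem cell marker Procr (−0.62) stood lowest, and Cd55 (0.74) and the multipotent progenitor marker Cd48 (0.79) highest. The counts of these lists over all kept cells also carry the class shares, which were 4.07% monocyte-like cells in the cKO library and 8.40% in the WT library; what that contributes was not tested.

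**Figure D5:**
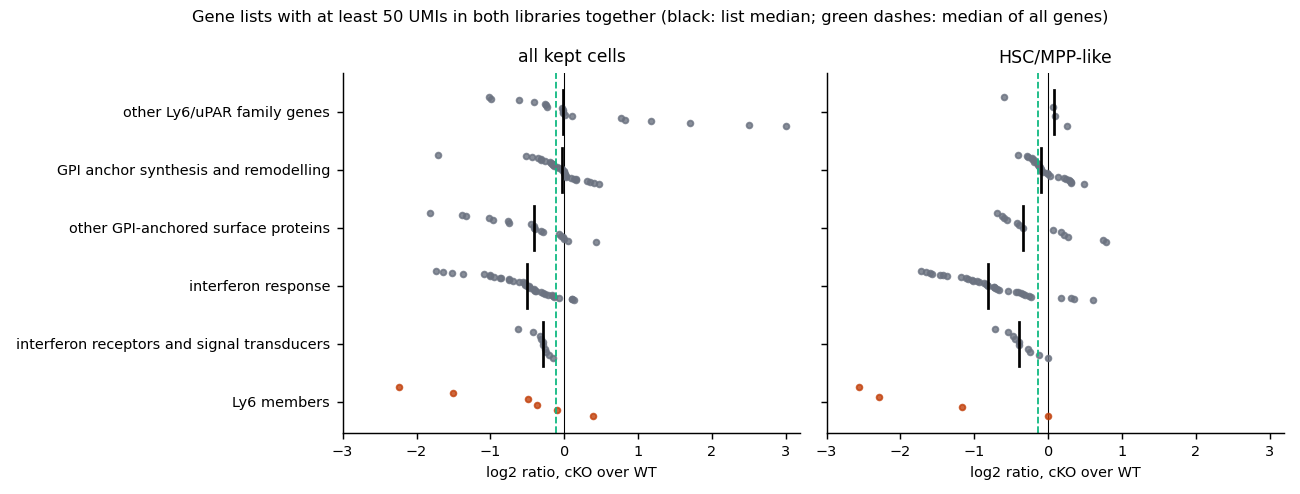
Log2 ratios of cKO over WT for the genes of 5 lists and for the Ly6 members that reached 50 UMIs when both libraries are summed, in all kept and in HSC/MPP-like cells; each point is a gene, black bars are list medians and green dashes the median of all genes. Interferon response genes have medians of −0.50 in all kept and −0.82 in HSC/MPP-like cells, and GPI anchor genes −0.03 and −0.10.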

How the data were processed

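The values used here are UMI counts per gene and barcode as deposited, 1 matrix for each library; per the submitters' processing notes the authors used Cell Ranger 7.1.0 with mm39. Genotypes were taken from the labels. A barcode was kept with 1000 or more UMIs, 500 or more genes and no more than 10% of its UMIs mitochondrial; Scrublet (scanpy 1.11.5, expected share 8%) called 544 cKO (4.84%) and 592 WT (4.72%) of them doublets, which were removed. Both libraries were clustered together without integration or the 6 Ly6 genes (2000 variable genes, 30 components, 15 neighbours, Leiden resolution 1.5). A cluster of at least 200 cells whose leading markers tied between classes was split again at resolution 0.5; this applied to 1 cluster, which gave part of the monocyte-like and HSC/MPP-like cells and all plasmacytoid dendritic-like cells, and 48 clusters resulted. A cluster was named "X-like" from the class with most markers among its 10 leading genes, with at least 3 markers at least 2-fold over the other cells, and a tie went to the class with the larger share of its markers so detected. Ties named 2 monocyte-like clusters, led by Gm34680 (53 cKO and 46 WT cells) and Cd34 (34 cKO and 70 WT cells); clusters with no leading marker needed 50% of a class's markers, set once the clusters had been examined. In all, 39 clusters were named and 9 were left unnamed.

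UMIs were summed by class and library and scaled to CPM. Log2 ratios are cKO over WT with 0.5 added to each sum. No test between genotypes was made, since cells are not replicates; whether each library pooled mice is not stated. A thinned cell was drawn down to 2000 UMIs with a fixed seed. Members and lists were chosen with earlier results of these data known. Named genes are the 6 members, the 3 genes most like each member with at least 100 UMIs, other family genes with at least 50 UMIs, the 2 lowest and 2 highest ratios of each other list, and class markers set beside a member; 1 gene that this rule names is not reported here. Alternatives covered doublets, a minimum of 3000 UMIs, cluster resolution, the Ly6 genes in the clustering, TMM (edgeR 4.0.16, scaling factors only) and median-of-ratios scaling, equal weight per cell, reweighted classes and list floors. Promoters came from RefSeq (GRCm38.p6) and transcript ends from GENCODE vM21, neither in the build of the files, so no position in the files was used. Python 3.11.15, numpy 2.4.6, scipy 1.17.1, pandas 2.3.3 and Biopython 1.88 were used, and the interval code was tested on simulated data.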

Additional observations from a re-analysis of the deposited data

Results flagged for a closer look

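For 3 members the libraries differed in opposite directions in different classes; none of these contrasts between classes was tested. Ly6a was higher in cKO basophil and mast-like cells, with a log2 ratio of 2.26 (0.79 to 4.41), from 18 UMIs in 15 cKO cells against 4 UMIs in 3 WT cells, while HSC/MPP-like and stromal/endothelial-like cells had intervals below 0. Ly6d was higher in cKO megakaryocyte-like cells, at 2.48 (0.92 to 5.06), from 21 UMIs in 6 cKO cells against 3 UMIs in 3 WT cells, and lower in conventional dendritic-like cells. It was also higher in cKO monocyte-like cells, at 2.23 from 32 UMIs in cKO cells and 18 in WT cells, with 12 of the 32 in 1 cell; that value ran down to 0.06 at Leiden resolution 2.5. Ly6e was higher in cKO T/NK-like cells, at 0.43 from 2615 UMIs in cKO cells and 1759 in WT cells, and lower in 6 of the other classes.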

How the results depend on the processing

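No paired analysis was possible because each genotype had 1 library. Log2 ratios over all kept cells with equal weight per cell were 1.13 for Ly6a, −1.89 for Ly6a2, 0.60 for Ly6c1, −1.43 for Ly6c2, 1.24 for Ly6d and −0.24 for Ly6e. TMM and median-of-ratios scaling gave 0.49 and 0.49 for Ly6a, −2.14 and −2.14 for Ly6a2, −1.41 and −1.41 for Ly6c2, 0.00359 and 0.00503 for Ly6d, and −0.27 and −0.27 for Ly6e. Weighting cKO classes, then cKO clusters, to the WT shares gave −0.14 and −0.19 for Ly6a, −1.77 and −1.11 for Ly6a2, −1.19 and −0.68 for Ly6c2, −0.66 and −0.58 for Ly6d, and −0.20 and −0.12 for Ly6e; members at least 2-fold lower then numbered 1 with clusters weighted. Without monocyte-like cells the ratios were −1.26 for Ly6a2, −1.13 for Ly6c2, −0.23 for Ly6d and −0.24 for Ly6e. Ly6d was −0.19 at 3000 UMIs, and Ly6a 0.53 without the highest cell. Cluster weighting, the run without monocyte-like cells, without shared barcodes and without the highest cell were chosen after seeing the data.

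By class, Ly6e in basophil and mast-like cells was 0.00759 with TMM and 0.00126 with median-of-ratios scaling, and Ly6a in stromal/endothelial-like cells 0.0636 and 0.13 at Leiden resolutions 1 and 2.5 and 0.0851 with Ly6 genes in the clustering. With TMM, 7 family genes were lower over all kept cells (median 0.0821), GPI genes had a median of 0.0705, and in HSC/MPP-like cells 10 GPI genes were lower (median 0.026). At 10 UMIs, 3 family genes were lower in HSC/MPP-like cells, and with no CPM floor 6.06% of genes were at least 2-fold lower. Of the other values by class and list, 422 moved within counting error, some across 0 (Ly6e in HSC/MPP-like, GMP-like and conventional dendritic-like cells and Ly6d in T/NK-like cells among them), and 112 beyond it. The TMM offsets, subtracted from each log2 ratio, were −0.0969 over all kept cells, −0.114 in GMP-like and −0.127 in HSC/MPP-like cells. The causes were not tested. Depth limits Ly6c1, Ly6a2 outside myeloid classes and every small class.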

Other observations

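Barcodes outside the filter, 2240 in the cKO and 3311 in the WT library, carried Ly6c2 at 48.1 CPM in the cKO and 272 CPM in the WT library, and Ly6e at 168 CPM in the cKO and 340 CPM in the WT library. Ly6c1 had 7 UMIs in the cKO barcodes and 0 in the WT barcodes, where 3 UMIs would be 0.778 CPM. Plasma-like cells carried Ly6c2 as well, at 401 CPM in 129 cKO cells and 1022 CPM in 76 WT cells. Eosinophil-like cells, 43 in the cKO and 184 in the WT library, had Ly6e at 1175 CPM in cKO cells and 967 CPM in WT cells.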
